A study of Mus musculus with 69 samples.

Results

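The integrated stress response and the unfolded protein response were followed through 37 genes in cultured mouse type 1 regulatory (Tr1) T cells that lacked 1 or 2 transcription factors. The 37 genes were taken by symbol from a fixed list, and all 37 were found among the 23366 genes of the deposited tables. They fall into 5 roles: 5 stress factors and effectors (Atf4, Ddit3, Trib3, Chac1, Sesn2), 6 enzymes of amino acid and one-carbon synthesis (Asns, Psat1, Phgdh, Psph, Shmt2, Mthfd2), 11 aminoacyl-tRNA synthetases (Aars, Cars, Gars, Iars, Mars, Nars, Sars, Tars, Wars, Yars, Eprs), 12 genes made up of the factor Xbp1 and chaperones or folding enzymes of the endoplasmic reticulum (Hspa5, Hsp90b1, Dnajb9, Dnajc3, Pdia4, Pdia6, Calr, Canx, Sdf2l1, Creld2, Manf), and 3 genes of endoplasmic reticulum-associated degradation (Herpud1, Sel1l, Edem1).

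In the integrated stress response, kinases that sense amino acid shortage, endoplasmic reticulum stress, double-stranded RNA or haem shortage phosphorylate the initiation factor eIF2, which lowers general protein synthesis and favours translation of ATF4. ATF4 then drives amino acid synthesis, transport and tRNA charging genes, and it shares the target Ddit3 (CHOP) with the unfolded protein response. The unfolded protein response is sensed by PERK, IRE1 and ATF6. IRE1 splices Xbp1 RNA, and ATF6 and XBP1 drive the chaperones and the degradation machinery that secreting lymphocytes rely on. Expected counts per gene do not tell spliced from unspliced Xbp1, and RNA levels do not report the translation of ATF4.

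Naive CD4 T cells received IL-27 (25 ng/ml) and anti-CD3 (1 ug/ml) for 72 h, and a second antibody is labelled anti-CD8 (1 ug/ml). RNA of 2000 lysed cells per library was sequenced with a SMART-Seq2 protocol, which has no molecular identifiers. Of 69 libraries 63 were used, 35 from knockout and 28 from control cells. Left out were all Cebpb libraries, replicate 3 of the Prdm1/Maf double knockout and replicate 1 of the Fosl2 knockout, which the choice of libraries excludes for too few usable counts.

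The Prdm1, Maf and double knockouts carried CD4 Cre(+/-) with floxed (f/f) Prdm1, Maf or both, with 3, 3 and 2 libraries against 3 Cre- controls. The CD4 promoter driving Cre is active in developing T cells of both the CD4 and CD8 lineages. CD4 Cre was also used for Fosl2 (1 knockout and 2 f/f control libraries), Hif1a (2 and 2 f/f), Nfil3 (2 and 3 f/f) and Stat3 (1 knockout). Atf3 was floxed with an Actin Cre, whose promoter is active far beyond T cells (2 and 2 f/f), and Irf8 with a dLck Cre (2 knockouts). Irf4 (2 and 3), Irf9 (4 and 3), Tbx21 (2 and 2), Ahr (2 and 2), Ets1 (2 and 2), Batf (2 knockouts) and Irf1 (3 knockouts) are labelled as knockouts only, against WT. Batf, Irf1, Irf8 and Stat3 shared 4 WT control libraries. The titles name no batch. The 3 sets called batches A, B and C here were inferred from the knockout libraries that control titles name, with C by exclusion. The Irf9 experiment used BALB/c mice and every other experiment C57BL/6. Separate mice or cultures are not named for the replicates, and the p-values therefore cover only the spread among the libraries, which may be technical.

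Values are CPM, the expected counts of a gene in its library scaled to a library total of 1000000. Library totals ran from 743427 to 15221863, and 10434 to 13880 genes had a count. The ribosomal transcript Rn45s took 1.18% to 43.7% of a library, with the highest share in Irf8 knockout replicate 1, whose median member was at 76.3 CPM, or 136 CPM once Rn45s was left out of the total. The CD4 T cell markers Cd3d, Cd3e, Cd3g, Cd4, Cd5 and Cd28 were found in all 63 libraries, with a summed level from 1106 to 4077 CPM, and the plasma cell marker Tnfrsf17 and the macrophage marker Lyz2 were at 0 in all 63. Changes are log2 fold changes of knockout over control ± SE from edgeR's quasi-likelihood test, which scales libraries by the trimmed mean of M-values (TMM), and adjusted p is the Benjamini-Hochberg value over all genes tested. A gene is said to rise or fall where adjusted p is under 0.05. In bulk RNA, fewer expressing cells and less RNA per cell cannot be told apart.

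The targeted transcript fell in the Irf4, Prdm1, Maf and double knockouts (values below), and in Batf (0 to 1.47 CPM against 61.3 to 67.2), Stat3 (7.89 against 295 to 300.2) and Tbx21 (15.5 to 17.7 against 68.2 to 86.0). It did not pass the test in Irf1, Irf8, Ets1, Irf9, Hif1a, Ahr, Nfil3 or Fosl2, and under the Atf3 knockout label it was higher (75.1 to 85.7 CPM against 14.5 to 27.1). Whether the counted reads lie in a deleted exon is not given in the sources used here, so these 9 comparisons are named by their labels only. Among them, the Nfil3 knockout libraries differed from each other, with Nfil3 from 3.08 to 211 CPM, against 252 to 277 CPM in the controls.

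Several chaperone promoters hold a common element, which is shown because it was found in endoplasmic reticulum genes and in none of the amino acid, stress factor or synthetase genes searched. Promoters ran from 250 bases before to 50 after the start site (RefSeq, GRCm38.p6), and 33 of the 37 genes had one; Cars, Nars, Wars and Manf are named only. They were searched on both strands for the endoplasmic reticulum stress element ERSE (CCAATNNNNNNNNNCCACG, bound by ATF6 with NF-Y), ERSE-II (ATTGG and CCACG with 1 base between them), the XBP1 and ATF6 element UPRE (TGACGTGG), and the amino acid response element bound by C/EBP-ATF4 dimers (CARE, TGATGNAA). None of the 4 motifs holds another as a whole. ERSE was found in 7 of 33 members (21.2%) and in 0.137% of the 27025 genes of the table. All 7 are chaperones or folding enzymes, given here on the coding strand from 15 bases outside the outermost motif, with the bases of the motif in capitals and its unspecified positions in lower case (CCAAT and CCACG, or CGTGG and ATTGG where the motif lies on the other strand). The Hsp90b1 promoter holds 2 copies.

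Hspa5 (chr2:34772010-34772058, plus strand): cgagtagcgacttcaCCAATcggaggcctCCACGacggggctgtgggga
Hsp90b1 (chr10:86705518-86705671, minus strand): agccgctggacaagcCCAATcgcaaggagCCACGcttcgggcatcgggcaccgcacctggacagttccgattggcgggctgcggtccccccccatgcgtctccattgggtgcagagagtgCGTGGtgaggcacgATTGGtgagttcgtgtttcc
Calr (chr8:84847060-84847108, minus strand): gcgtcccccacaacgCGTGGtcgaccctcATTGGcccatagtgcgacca
Creld2 (chr15:88819505-88819553, plus strand): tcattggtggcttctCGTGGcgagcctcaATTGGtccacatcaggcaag
Pdia6 (chr12:17266476-17266524, plus strand): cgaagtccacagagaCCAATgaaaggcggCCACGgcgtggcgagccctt
Canx (chr11:50325785-50325833, minus strand): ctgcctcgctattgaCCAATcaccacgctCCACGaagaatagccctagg
Dnajc3 (chr14:118937812-118937860, plus strand): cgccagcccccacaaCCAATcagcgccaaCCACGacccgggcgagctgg

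ERSE-II was found in 1 of 33 members, the degradation gene Herpud1 (3.03%, against 0.0444% of all genes), whose promoter also holds a CARE on the other strand, as in Chac1 and Gars. CARE was found in 9 of 33 members (27.3%, against 4.51% of all genes), among them Trib3, Chac1, Asns, Gars, Iars, Tars, Yars and Herpud1. Apart from Herpud1, these are stress effectors, asparagine synthetase and tRNA synthetases. UPRE was in 0 of 33 (0.714% of all genes). A match describes these letters in this window only. The Herpud1 stretch and 3 CARE stretches are shown with the same capitals.

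Herpud1 (chr8:94386302-94386402, plus strand): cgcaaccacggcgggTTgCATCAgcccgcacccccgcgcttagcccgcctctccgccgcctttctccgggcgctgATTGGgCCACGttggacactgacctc
Asns (chr6:7693210-7693247, minus strand): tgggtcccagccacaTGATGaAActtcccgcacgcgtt
Chac1 (chr2:119351034-119351071, plus strand): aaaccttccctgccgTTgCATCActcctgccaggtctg
Gars (chr6:55037956-55037993, plus strand): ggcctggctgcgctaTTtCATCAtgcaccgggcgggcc

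In control cells the module was led by calreticulin and the serine pathway. On the authors' TPM scale, which gives transcripts in 1000000 and corrects for transcript length, the medians over the 28 control libraries were highest for Calr (438 TPM), a lectin chaperone, Phgdh (352), which opens serine synthesis from glycolysis, Hspa5 (332), the chaperone BiP, and Psat1 (304), the next serine enzyme. Dnajb9 (5.95), a BiP co-chaperone, Chac1 (8.90), which degrades glutathione, and Dnajc3 (22.1), another BiP co-chaperone, were the lowest. Neighbours in this order overlapped: Phgdh ran from 147 to 747 TPM and Hspa5 from 225 to 604 TPM. Among the synthetases the highest control library was from 2.03 (Nars) to 6.11 times (Wars) the lowest, while for Ddit3 it was 41.9 times. The lowest Ddit3 value, 3.20 TPM, came from a BALB/c Irf9 control at 2 counts, under the floor of 3 counts. Within the 25 C57BL/6 control libraries Ddit3 ran from 30.1 to 134 TPM.

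**Figure D1:**
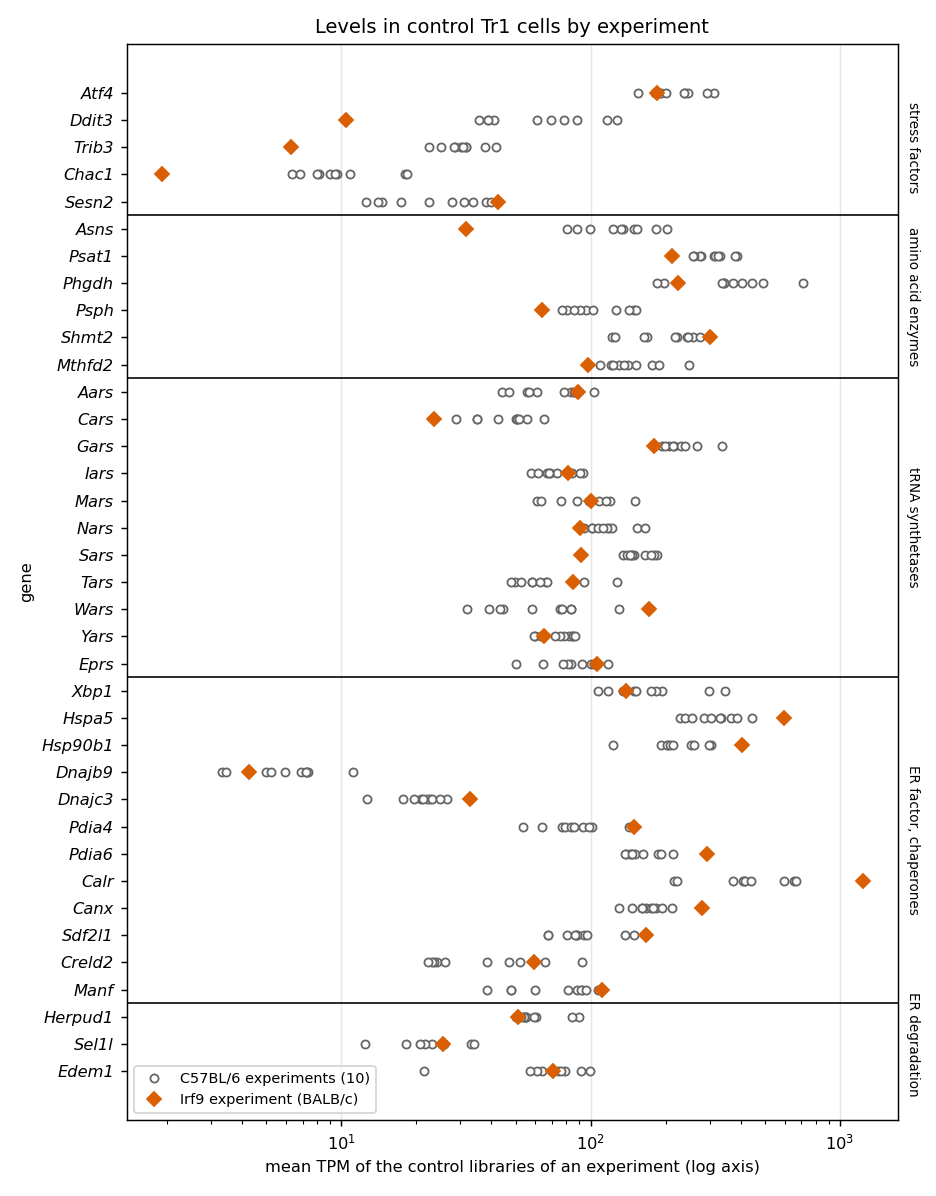
Mean TPM (log axis) of the control libraries of each experiment for the 37 genes, ordered by role; circles are the 10 C57BL/6 experiments and diamonds the BALB/c Irf9 experiment. Diamonds lie left of all circles for Ddit3, Trib3, Chac1 and Asns and right of them for Hspa5, Hsp90b1, Dnajc3, Pdia4, Pdia6, Calr and Canx.

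The BALB/c controls of the Irf9 experiment had less Ddit3, Trib3 and Asns RNA and more RNA of 7 chaperone genes than every C57BL/6 control. All 3 lay below all 25 C57BL/6 control libraries for 6 members: Ddit3 (3.20 to 15.6 TPM against 30.1 to 134), Trib3 (3.69 to 9.31 against 18.7 to 45.7), Chac1 (1.53 to 2.43 against 2.52 to 19.1), Asns (24.1 to 44.3 against 76.7 to 243), Psat1 and Sars. Chac1 was at 2 counts in each of the 3, under the floor of 3 counts, and its gap is not read as a difference. Ddit3 was at 7, 9 and 2 counts and Trib3 at 4, 10 and 14 counts in these libraries. They lay above all of them for 9: Calr (1210 to 1272 TPM against 203 to 668), Hspa5 (591 to 604 against 225 to 458), Hsp90b1, Dnajc3, Pdia4, Pdia6, Canx, Shmt2 and Wars. The other 22 members were inside the C57BL/6 range, Atf4 among them (167 to 208 against 114 to 316). The 4 knockout libraries of this experiment held 2.48 to 5.69 TPM of Trib3 and 1208 to 1264 TPM of Calr. Strain and experiment cannot be told apart here, and no test was made. The share of all genes outside the C57BL/6 range is not given here, so these counts are not read as particular to the members.

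Over the 16 knockout comparisons, 588 values of a member in a comparison were tested and 55 passed, 35 higher and 20 lower. Over all genes in the same comparisons 7.65% of values passed, 3.43% higher and 4.22% lower. The Irf4 comparison held 21 of the 55. Of the 37 members, 28 passed in at least 1 comparison and 9 in none: Chac1, Phgdh, Psph, Aars, Gars, Iars, Mars, Sars and Tars. The 7.65% is a share of values, and the share of all genes that passed in at least 1 comparison is not given here. Xbp1 passed most often, in 6 comparisons, and Wars, the tryptophanyl-tRNA synthetase, in 4. The 3 knockouts of the Prdm1 and Maf experiment share their controls, and so do in part the Batf, Irf1, Irf8 and Stat3 knockouts.

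**Figure D2:**
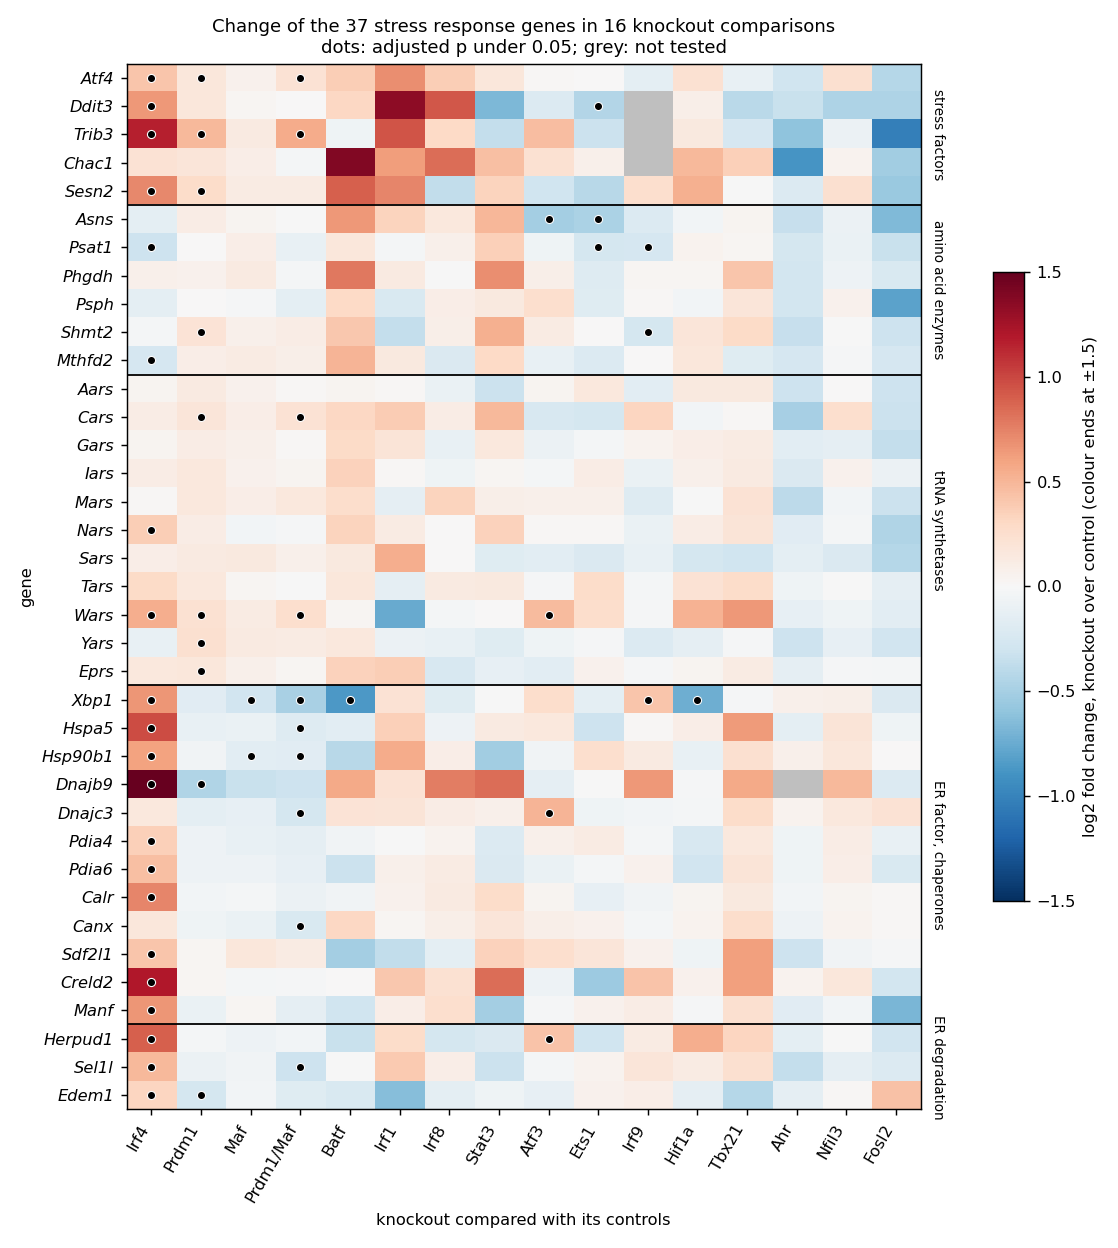
Log2 fold change of knockout over control (colour, ends at ±1.5) for the 37 genes in 16 comparisons; dots mark adjusted p under 0.05 and grey squares genes not tested. The Irf4 column holds 21 of the 55 dots, 13 of them among the 15 genes of the endoplasmic reticulum.

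Loss of Irf4 raised 10 of 12 chaperone genes, 3 of 3 degradation genes and 4 of 5 stress factors, while 0 of 6 amino acid enzymes among the members rose. IRF4 is a factor that T cells induce on antigen receptor signalling, and its own transcript stood at 187 to 190.3 CPM in knockout and 419 to 461 CPM in control libraries. Of the 37 members 19 rose and 2 fell. Among all 10477 genes tested 28.0% passed, 14.8% upward and 13.2% downward. The members' median log2 fold change was 0.32, against -0.01 over all genes. Canx, Dnajc3 and Chac1 were the only chaperone, degradation or stress factor members that did not pass. Of the synthetases 2 of 11 rose, and 2 of 6 amino acid enzymes fell. The summed level of the 12 chaperone genes was 3216 and 3038 CPM in the knockout libraries and 2139, 2092 and 2201 CPM in the controls. The sum over the 6 amino acid enzymes was 1378 and 1336 CPM against 1595, 1501 and 1498 CPM.

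**Figure D3:**
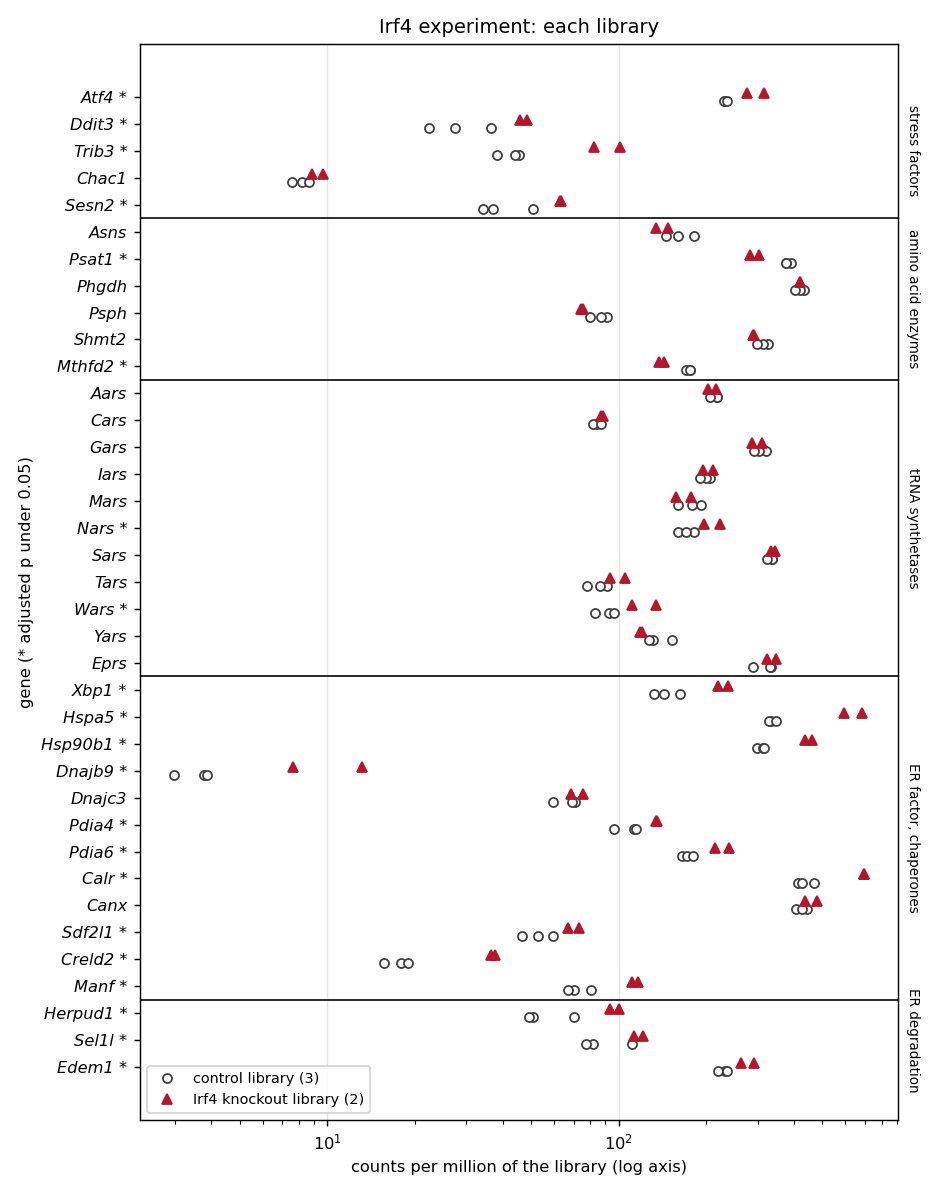
CPM (log axis) of the 37 genes in the 2 Irf4 knockout libraries (triangles) and 3 control libraries (circles); asterisks mark adjusted p under 0.05. Hspa5, Calr, Creld2, Herpud1 and Trib3 lie apart with no overlap, while Phgdh, Aars, Gars, Sars and Canx overlap.

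Among the chaperones, BiP (Hspa5), the main chaperone of the endoplasmic reticulum lumen, was at 683 and 591 CPM in the knockout libraries and 334, 328 and 347 CPM in the controls. Both knockout libraries were above all 3 controls (log2 fold change 0.98 ± 0.09, adjusted p = 2.54e-09). Creld2, a disulfide isomerase-like protein, stood at 36.6 and 37.7 CPM against 17.9, 18.9 and 15.7 CPM. The groups again did not overlap (log2 fold change 1.198 ± 0.175, adjusted p = 9.53e-06). Calr was at 692 and 693 CPM against 467, 413 and 426 CPM (0.74 ± 0.08, adjusted p = 1.08e-07). Its relative Canx, the membrane-bound lectin chaperone, was at 478 and 435 CPM against 406, 443 and 427 CPM, with overlapping groups (0.17 ± 0.08, adjusted p = 0.132). The soluble and the membrane-bound lectin chaperone therefore differed in their calls, though the difference between them was not tested. Hsp90b1, the lumenal Hsp90 protein GRP94, was at 460.1 and 437 CPM against 297, 312 and 315 CPM (0.60 ± 0.08, adjusted p = 3.25e-06). Manf, a secreted stress-induced factor, was at 116 and 111 CPM against 70.2, 67.2 and 80.5 CPM (0.67 ± 0.11, adjusted p = 5.62e-05). In each of these except Canx the lowest knockout library was above the highest control.

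Dnajb9 (ERdj4) had the largest fold change and the thinnest counts, with 30 and 37 counts in the knockout libraries against 4, 4 and 16, or 7.62 and 13.2 CPM against 2.99, 3.79 and 3.86 CPM (1.51 ± 0.36, adjusted p = 0.00262). Xbp1 was at 219 and 236 CPM against 143, 133 and 163 CPM and rose (0.67 ± 0.10, adjusted p = 8.20e-06). The isomerases Pdia6 (0.45) and Pdia4 (0.36) and the BiP cofactor Sdf2l1 (0.42) rose less. Dnajc3 did not pass (0.16 ± 0.12, adjusted p = 0.342). Of the degradation genes, Herpud1, which links the machinery to the ubiquitin ligase HRD1, was at 93.2 and 100.3 CPM against 50.8, 70.1 and 49.2 CPM (0.90 ± 0.13, adjusted p = 6.73e-06). Sel1l, the adaptor of HRD1, rose by 0.49, and Edem1, a mannosidase-like protein that hands glycoproteins to degradation, by 0.32.

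Among the stress factors, the pseudokinase Trib3 had the largest change. It was at 101 and 82.5 CPM against 38.1, 45.4 and 44.1 CPM (1.17 ± 0.13, adjusted p = 1.81e-07), so that its lowest knockout library was far above its highest control. Sesn2, a leucine sensor that restrains mTORC1, was at 62.8 and 63.3 CPM against 50.8, 34.1 and 37.1 CPM (0.72 ± 0.14, adjusted p = 0.000315). CHOP (Ddit3), a factor tied to cell death under lasting stress, was at 46.0 and 48.4 CPM against 22.4, 27.5 and 36.4 CPM (0.65 ± 0.16, adjusted p = 0.00316). The controls of both genes were spread more widely than the knockouts. Atf4 RNA was at 316 and 276 CPM against 232, 230.1 and 236 CPM (0.41 ± 0.09, adjusted p = 0.000831). Chac1 did not pass (0.21 ± 0.27, adjusted p = 0.608).

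Of the 17 amino acid enzymes and synthetases, 2 rose, 2 fell and 13 did not pass. Psat1, the serine pathway aminotransferase, was at 302 and 282 CPM against 389, 374 and 374 CPM and fell (-0.31 ± 0.08, adjusted p = 0.00647). Mthfd2, the mitochondrial one-carbon enzyme, was at 143 and 138 CPM against 175, 170.4 and 175 CPM and fell (-0.25 ± 0.09, adjusted p = 0.0413). The Mthfd2 call was lost in 9 of 11 alternatives, DESeq2 and each of the 5 left-out libraries among them (adjusted p from 0.0527 to 0.279), and the Psat1 call in 1, without knockout replicate 2 (adjusted p = 0.156). Asns, asparagine synthetase and a standard ATF4 target, had overlapping groups (-0.14 ± 0.10, adjusted p = 0.313). Of the synthetases, Wars (135 and 111 CPM against 92.6, 96.6 and 83.1 CPM, 0.54 ± 0.11, adjusted p = 0.00058) and Nars, the asparaginyl enzyme (0.37), rose. The other 9 synthetases did not pass, with log2 fold changes from -0.11 (Yars) to 0.29 (Tars). The median over the 15 endoplasmic reticulum genes was 0.60 and that over the 22 other members 0.10, a difference of -0.50 (amino acid and stress genes minus endoplasmic reticulum genes) that no library scaling can move.

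Further genes of both pathways, from a second list of 78, moved in the same comparison. Of 75 tested, 32 rose and 8 fell. Among 29 tested genes of folding, secretion and degradation 18 rose and 2 fell. They included Syvn1 (1.03 ± 0.14), which is HRD1 itself, Ero1l (0.75 ± 0.10), the oxidase that recharges disulfide isomerases, Hyou1 (0.72 ± 0.10), the nucleotide exchange factor of BiP, and Derl2 (0.73 ± 0.21), a channel component of the degradation route. Of 16 ATF4 partners and targets 8 rose and 0 fell, led by Atf3 (1.48 ± 0.20) and Atf5 (1.05 ± 0.15). Ppp1r15a (GADD34), which directs the removal of phosphate from eIF2, rose by 1.07 ± 0.15. The sensor Atf6 fell by 0.58 ± 0.12 on the log2 scale. Of 10 tested further amino acid and one-carbon enzymes 2 rose and 3 fell. The aspartate aminotransferase Got1 rose by 0.75 ± 0.09 and the mitochondrial one-carbon enzyme Mthfd1l by 0.34 ± 0.09, while the proline enzyme Pycr1 (-0.78 ± 0.23), the cytosolic one-carbon enzyme Shmt1 (-0.61 ± 0.17) and Pck2 (-0.49 ± 0.10) fell. Of 9 further synthetases Rars rose and Vars and Qars fell (adjusted p from 5.53e-07 for Got1 to 0.0130 for Pycr1 among the genes named with a value here).

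The chaperone promoters shown above can be set beside these changes. Of 7 members with ERSE, 5 rose (Hspa5, Hsp90b1, Calr, Creld2, Pdia6) and 2 did not pass (Canx, Dnajc3), with a median log2 fold change of 0.60. Xbp1, Dnajb9, Pdia4 and Sdf2l1, of the same role and with no ERSE in the promoter searched, all rose as well. Within this role the rise therefore did not follow the element. Of the 5 other genes with ERSE that were tested, 1 rose (Syvn1) and 1 fell, with a median of -0.02. Herpud1, with ERSE-II, rose. Among all 214 tested genes with a CARE, 43 rose and 36 fell. Of the 9 members with a CARE, Trib3 and Herpud1 rose and the other 7 did not pass.

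Other signals moved with the Irf4 comparison. The summed level of the genes that cell handling can induce, Fos, Jun, Egr1, Hspa1a and Hspa1b was 228 to 236 CPM in knockout and 115 to 137 CPM in control libraries, and Jun, Egr1 and Hspa1b rose. The 9 B and plasma cell markers summed to 45.5 to 59.2 CPM against 31.4 to 38.3, with a rise of Mzb1, itself an endoplasmic reticulum protein, and Igj and Tnfrsf17 at 0 in all 5 libraries. The 6 CD4 T cell markers summed to 1741 to 1790 CPM against 2239 to 2304, with Cd3e, Cd5 and Cd28 lower, and the 7 myeloid markers to 7.62 to 8.89 CPM against 22.2 to 23.2, with Lyz2, Csf1r and Emr1 at 0. Their part in the result was not tested. Control replicates 1 and 2 differed little beyond counting noise (chi-square per degree of freedom 1.09). With such pairs summed, 20 members passed, where 1488 of 10503 genes rose and 1313 fell. Without knockout replicate 1 the count was 13 (12 higher, 1 lower), where 16.5% of all genes passed. The test found 10 of the 21 members under every alternative run: Calr, Creld2, Ddit3, Herpud1, Hsp90b1, Hspa5, Manf, Sesn2, Trib3 and Xbp1.

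Loss of Prdm1 raised 3 of 5 stress factors and 4 of 11 tRNA synthetases slightly and, on the TMM scale, lowered 2 genes of the endoplasmic reticulum. PRDM1 (Blimp-1) is a repressor of activated lymphocytes, and its transcript was at 2.05 to 4.75 CPM in knockout and 24.8 to 27.7 CPM in control libraries. Of 37 members 8 rose (Trib3, Sesn2, Yars, Wars, Shmt2, Cars, Atf4, Eprs) and 2 fell (Dnajb9, Edem1). Over all 11316 genes tested 12.1% passed, 4.97% upward and 7.11% downward. The members' median log2 fold change was 0.10, against 0.01 over all genes. All 11 synthetases and all 6 amino acid enzymes had values above 0, and 10 of 12 chaperone genes and 3 of 3 degradation genes had values below 0 on the TMM scale, which lowers this comparison by 0.06 against library totals.

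Trib3 had the largest rise, with 64.4, 64.0 and 65.5 CPM in the knockout libraries and 42.3, 42.0 and 48.8 CPM in the controls (0.48 ± 0.09, adjusted p = 0.000782). Sesn2 was at 42.3, 38.3 and 40.5 CPM against 31.0, 32.5 and 32.6 CPM (0.27 ± 0.07, adjusted p = 0.0173). In both genes all knockout libraries were above all controls. The tyrosyl enzyme Yars was at 177, 176 and 180.3 CPM against 139, 145 and 148 CPM (0.24 ± 0.05, adjusted p = 0.00334), and Wars at 191, 192 and 208 CPM against 161, 155 and 169 CPM (0.22 ± 0.05, adjusted p = 0.00426). Shmt2, the mitochondrial serine-to-glycine enzyme, was at 302, 308 and 327 CPM against 249, 269 and 263 CPM (0.20 ± 0.05, adjusted p = 0.00573). These groups did not overlap either, though the shifts were small. Cars (0.18 ± 0.06), Atf4 (0.17 ± 0.05) and Eprs (0.17 ± 0.05) rose by similar amounts. Dnajb9 was at 10.1, 12.4 and 10.4 CPM against 12.6 to 16.04 CPM (-0.45 ± 0.15, adjusted p = 0.0492), and Edem1 at 72.4, 80.3 and 79.6 CPM against 81.7, 103 and 82.1 CPM (-0.26 ± 0.08, adjusted p = 0.0381).

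Loss of Maf lowered Xbp1 and Hsp90b1, and no member rose. MAF is a factor that T cells use to express Il10, and its transcript was at 0 CPM in knockout and 46.4 to 49.0 CPM in control libraries. Of 37 members 0 rose and 2 fell, where 9.02% of all genes passed, 3.93% upward and 5.09% downward. Xbp1 was at 376, 389 and 363 CPM against 412, 486 and 482 CPM (-0.28 ± 0.06, adjusted p = 0.00347), and Hsp90b1 at 356, 368 and 372 CPM against 430.4, 390.4 and 408 CPM (-0.16 ± 0.05, adjusted p = 0.0446). In both genes the knockout libraries were all below the controls.

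Loss of both factors raised Trib3, Atf4, Cars and Wars and lowered Xbp1 with 5 chaperone and degradation genes on the TMM scale. Of 37 members 4 rose and 6 fell, where 19.0% of all genes passed, 8.20% upward and 10.8% downward. Trib3 was at 64.4 and 73.9 CPM against the controls given above (0.55 ± 0.09, adjusted p = 0.000267). Wars was at 203 and 207 CPM (0.25 ± 0.05, adjusted p = 0.00207). Atf4 was at 281 and 299 CPM against 234, 224 and 242 CPM (0.22 ± 0.06, adjusted p = 0.00985), and Cars at 132 and 136 CPM against 103, 108 and 115 CPM (0.21 ± 0.06, adjusted p = 0.019). All double knockout libraries were above all controls for these 4 genes. Xbp1 was at 349 and 351 CPM, below all controls (-0.48 ± 0.07, adjusted p = 2.12e-05). Sel1l was at 74.1 and 65.7 CPM against 80.5, 81.1 and 83.5 CPM (-0.31 ± 0.08, adjusted p = 0.0094), and Canx at 546 and 519 CPM against 586, 573 and 601 CPM (-0.23 ± 0.06, adjusted p = 0.00648). Both lay below their controls. Dnajc3 (-0.26 ± 0.08, adjusted p = 0.0278), Hspa5 (-0.20 ± 0.06, adjusted p = 0.0178) and Hsp90b1 (-0.17 ± 0.05, adjusted p = 0.028) fell on the TMM scale; in CPM of the library total, Dnajc3 was at 72.1 and 66.8 CPM against 71.7, 77.7 and 85.4 CPM, which overlap.

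**Figure D4:**
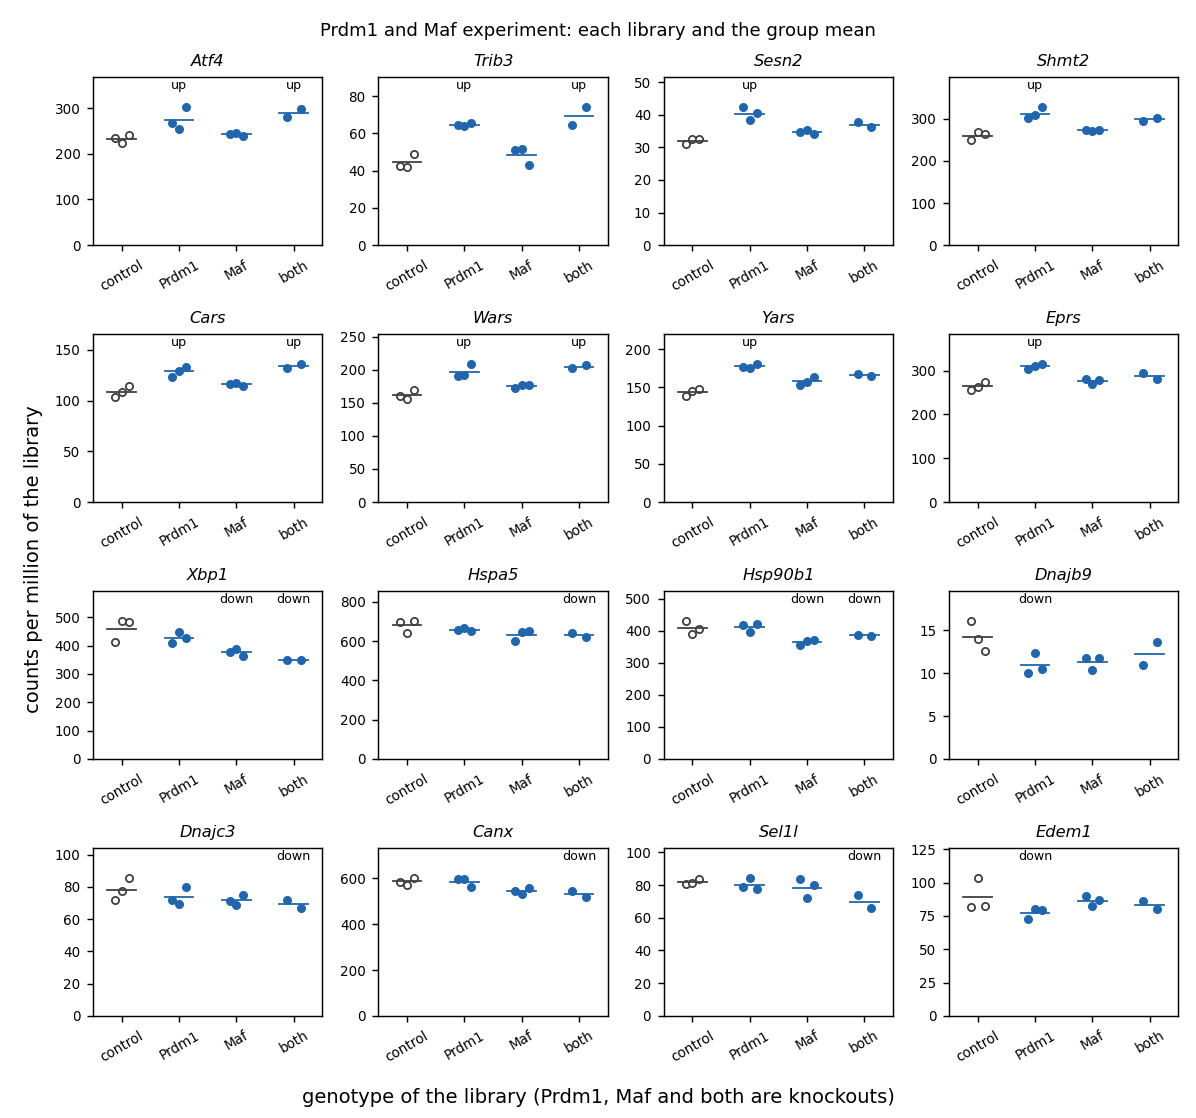
CPM of the 16 members that passed the test in the Prdm1, Maf or double knockout, in each of 11 libraries, with a line at the group mean; up and down mark the groups that passed. Trib3 and Wars are highest in the Prdm1 and double knockouts, and Xbp1 is lowest in the Maf and double knockouts.

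The split between rises and falls in this experiment depends on the scaling of libraries. TMM lowered the Prdm1 knockout by 0.06 and the double knockout by 0.09 on the log2 scale against library totals. On library totals alone, an alternative chosen after seeing the data, 19 members rose and 0 fell in the Prdm1 knockout, 1 rose and 2 fell in the Maf knockout, and 9 rose and 2 fell in the double knockout. The split over all genes moved as well: on library totals 8.65% rose and 4.56% fell in the Prdm1 knockout, 3.67% rose and 5.27% fell in the Maf knockout, and 15.5% rose and 6.83% fell in the double knockout. The distance between the arms does not depend on scaling: the median of the 22 amino acid and stress members minus that of the 15 endoplasmic reticulum members was 0.24 in the Prdm1, 0.17 in the Maf and 0.21 in the double knockout. In the comparisons where no member passed, this distance ran from -0.22 (Fosl2) to 0.15 (Stat3), with -0.21 in Ahr. No spread is given for it, and it was not tested. The departure of the double knockout from the sum of both single knockouts passed for 0 of 37 members in edgeR and 0 in DESeq2, where 1.10% of all genes passed in edgeR. At an unadjusted p under 0.05 there were 12 members, 11 of them below 0, and 12.2% of all genes. Without Prdm1 knockout replicate 3 that departure passed for 5 members, all below 0, and for 3.60% of all genes.

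Libraries mattered at these small sizes. The Prdm1 count of 10 was 6 without control 1, 5 without control 2 and 6 without Prdm1 knockout replicate 1. The Maf count of 2 was 1 without each of 8 libraries (controls 1 and 3, Prdm1 replicate 2, Maf replicates 1, 2 and 3, and both double knockouts) and 4 without Prdm1 replicate 3; Xbp1 passed each time. The double count of 10 was 6 without its replicate 1 and 3 without its replicate 2. Over all genes, 445 rose and 576 fell for Maf with all 11 libraries. Without controls 1 or 3, Prdm1 replicate 2 or any Maf replicate, 210 to 446 rose and 300 to 552 fell. For the Prdm1 and double knockout fits with 1 library left out, the counts over all genes are not given here. The lower member counts in those fits are therefore not read as particular to the members. With the excluded double knockout replicate 3, 0 members passed in all 3 comparisons. Of the 11132 genes tested there, 44 rose and 39 fell for Prdm1, 27 and 37 for Maf, and 89 and 77 for the double knockout. Markers of other cells moved as well: B and plasma cell markers summed to 79.8 to 92.2 CPM in the Prdm1, 82.3 to 85.4 in the Maf and 97.0 to 107 in the double knockout against 67.8 to 73.4 CPM in the controls, with Tnfrsf17 at 0 throughout, and CD8 and NK markers to 71.3 to 89.2, 79.8 to 85.7 and 115 to 119 CPM against 69.6 to 77.9, with Ncr1 at 0. Their part in the result was not tested.

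Among further pathway genes, the falls in the double knockout lay mainly in folding, secretion and degradation. Of 30 tested genes of that list 9 fell and 0 rose on the TMM scale, where 10.8% of all genes fell and 8.20% rose. They included the signal peptide receptor subunit Ssr3 (-0.44 ± 0.06, adjusted p = 4.11e-05), the vesicle coat gene Sec24d (-0.55 ± 0.09, adjusted p = 0.000139) and the folding sensor Uggt1 (-0.33 ± 0.09, adjusted p = 0.0137). Of 14 tested ATF4 partners and targets 3 rose and 1 fell. Of 11 further amino acid enzymes 1 rose and 1 fell, and of 9 further synthetases 0 passed. The glutamine carrier Slc1a5 rose by 0.44 ± 0.10 (adjusted p = 0.00453), and the carrier Slc38a2 fell by 0.59 ± 0.10 (adjusted p = 0.000180). In the Prdm1 knockout 4 of 11 further amino acid enzymes rose, the proline enzymes Pycr1 and Aldh18a1 with Gpt2 and Pck2. Atf6 fell in all 3 (-0.31 ± 0.08, -0.27 ± 0.08 and -0.32 ± 0.09), and the 3 comparisons share their controls. Of the 7 members with ERSE 0 passed in the Prdm1 knockout, 1 fell in the Maf knockout and 4 fell in the double knockout (Hspa5, Hsp90b1, Dnajc3, Canx), while of 7 other tested genes with ERSE 3 rose and 0 fell in the double knockout.

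Xbp1 moved in both directions across the series. It rose in the Irf4 knockout and in the libraries labelled Irf9 knockout, and it fell in the Maf, double and Batf knockouts and in the libraries labelled Hif1a knockout. XBP1 is required for the secretory expansion of plasma cells, and the files count all its RNA forms together. In the BALB/c Irf9 experiment it was at 207, 231, 229 and 213 CPM in the knockout libraries against 182, 145 and 166 CPM in the controls (0.42 ± 0.08, adjusted p = 0.00113). Every knockout library was above every control. In the Batf experiment it was at 133 and 156 CPM against 242, 245 and 262 CPM in the controls of the same batches (-0.87 ± 0.23, adjusted p = 0.0472). The log2 ratio was -0.86 within batch A (1 against 1 library) and -0.70 within batch B (1 against 2). In the Hif1a experiment it was at 158 and 162 CPM against 276 and 210.5 CPM (-0.73 ± 0.19, adjusted p = 0.0407), with no overlap. Hspa5 did not pass in these 3 comparisons, with log2 fold changes of 0.02 ± 0.05 in Irf9, -0.15 ± 0.22 in Batf and 0.10 ± 0.19 in Hif1a.

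**Figure D5:**
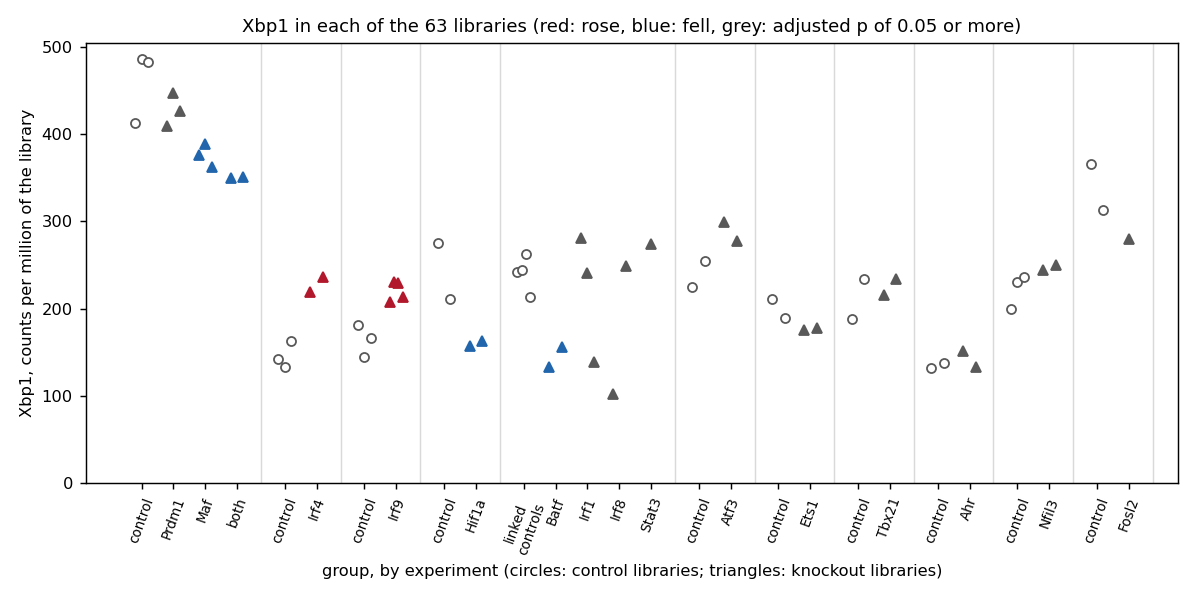
Xbp1 in CPM in each of the 63 libraries by experiment; circles are control and triangles knockout libraries, with red for a rise, blue for a fall and grey for adjusted p of 0.05 or more. Controls of the Prdm1 and Maf experiment lie from 412 to 486 CPM, above those of the Irf4 experiment at 133 to 163 CPM.

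In the Batf knockout, among further pathway genes, the oxidase Ero1l (-1.74 ± 0.21, adjusted p = 0.000155) and the disulfide isomerase P4hb (-1.31 ± 0.22, adjusted p = 0.00222) fell with Xbp1. Cth (1.40 ± 0.22, adjusted p = 0.00119), which makes cysteine, Mthfd1 (1.14 ± 0.26, adjusted p = 0.0202), a cytosolic one-carbon enzyme, and Pck2 (0.78 ± 0.20, adjusted p = 0.0403) rose. The median of the 22 amino acid and stress members was 0.31 and that of the 15 endoplasmic reticulum members -0.15, with 1 member past the threshold. Ero1l was also lower in Stat3 (-1.19 ± 0.28, 1 knockout library), which shares controls with Batf. It fell under the Hif1a (-2.22 ± 0.19) and Atf3 (-0.37 ± 0.11) labels too, and rose in Irf4. Under the Hif1a label Vldlr (-4.31 ± 0.40), Ddit4 (-1.42 ± 0.18), Mthfd1l and Eif4ebp1 fell as well, and of 73 further pathway genes tested 0 rose.

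The Batf and Hif1a calls of Xbp1 are close to the threshold. In Batf, 1 of 37 members passed, where 4.04% of all genes did and 2.88% fell, and Xbp1 did not pass without either Batf library, any of the batch A and B controls, Irf1 knockout replicate 1, Irf1 control 2 or either Irf8 library (adjusted p from 0.0542 to 0.445). The Batf count was 2 without Irf1 knockout replicate 2 (4.04% of all genes) and 3 without replicate 3 (5.89%). Without a batch term (adjusted p = 0.208) and on library totals (adjusted p = 0.353) it did not pass. In Hif1a, 1 of 37 passed against 5.55% of all genes, 4.19% downward. The call was lost without either control library (adjusted p = 0.825 and 0.169) and on library totals (adjusted p = 0.105), where TMM differs by 0.13 on the log2 scale; 3 members passed without knockout replicate 1 (12.2% of all genes) and 2 without replicate 2 (14.0%). B and plasma cell markers summed to 116 to 155 CPM in the Hif1a knockout and 34.4 to 36.4 CPM in its controls, with Tnfrsf17 at 0. Their part in the result was not tested.

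In the Irf9 experiment 34 members were tested, since Ddit3, Trib3 and Chac1 were too low, and 3 passed, where 4.93% of all genes did, 2.45% upward and 2.48% downward. Besides Xbp1, Psat1 fell from 239, 263 and 234 CPM in the controls to 224, 217, 207 and 185 CPM (-0.25 ± 0.07, adjusted p = 0.0386), and Shmt2 from 360.2, 385 and 359 CPM to 309, 329.9, 308 and 301 CPM (-0.26 ± 0.06, adjusted p = 0.00641). Neither gene had overlapping groups, but the Psat1 call was lost in 10 of 13 alternatives. On library totals 1 rose and 1 fell, where 250 rose and 177 fell over all genes. Knockout replicates 3 and 4 (chi-square per degree of freedom 1.07), knockout 1 and 2 (1.23) and control 2 and 3 (1.26) differed little beyond counting noise. With these pairs summed 0 of the members passed (adjusted p = 0.0742 for Xbp1), where 66 rose and 46 fell among 9746 genes. Without control 2 also 0 passed, where 116 rose and 109 fell among 9056 genes.

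In the libraries labelled Atf3 knockout, Wars, Dnajc3 and Herpud1 rose and Asns fell. ATF3 is itself a stress-induced repressor downstream of ATF4, and its transcript was higher in these libraries, as given above. Directions here follow the labels, and an exchange of the labels of both groups, which was not tested, would turn all 4. Of 37 members 3 rose and 1 fell, where 8.19% of all genes passed, 3.32% upward and 4.87% downward. Wars was at 154 and 168 CPM against 112 and 120.1 CPM (0.47 ± 0.11, adjusted p = 0.00517), and Dnajc3 at 88.2 and 84.8 CPM against 57.7 and 62.9 CPM (0.51 ± 0.13, adjusted p = 0.00973). Herpud1 was at 77.6 and 72.0 CPM against 56.3 and 54.7 CPM (0.42 ± 0.14, adjusted p = 0.048). The Herpud1 call was lost in 8 of 9 alternatives. The labelled knockouts were above both controls in all 3 genes. Asns was at 82.2 and 67.6 CPM against 93.6 and 118 CPM (-0.51 ± 0.13, adjusted p = 0.0101), below both controls. DESeq2 called 0 of the 4, where 62 rose and 130 fell over all genes. The count also fell without knockout replicate 2, control 1 or control 2, in fits that leave 1 library in a group. B and plasma cell markers summed to 91.7 to 95.4 CPM against 43.6 to 49.9, with Tnfrsf17 at 0, and CD8 and NK markers to 27.2 to 28.3 against 107 to 154 CPM, with Klrb1c and Ncr1 at 0. Their part in the result was not tested.

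In the libraries labelled Ets1 knockout, 3 members fell and 0 rose, where 20.4% of all genes passed, 10.3% downward. Asns was at 112 and 131 CPM against 167 and 177 CPM (-0.48 ± 0.10, adjusted p = 0.00816). Psat1 was at 312 and 333 CPM against 397 and 394 CPM (-0.27 ± 0.08, adjusted p = 0.03), and Ddit3 at 31.3 and 31.7 CPM against 48.3 and 39.1 CPM (-0.44 ± 0.14, adjusted p = 0.0477). Knockout libraries were below both controls for each. Hspa5 had an adjusted p just above the threshold (-0.31 ± 0.10, adjusted p = 0.0501). The count was 1 in DESeq2, where 622 rose and 620 fell over all genes. It moved without knockout replicate 1 and without either control, in fits that leave 1 library in a group. Of 76 further pathway genes tested 7 rose and 9 fell, or 21.1%, near the share of all genes. Of 10 further amino acid enzymes 3 fell (Aldh1l2, Cth, Pck2) and 0 rose. Handling genes summed to 95.7 to 103 CPM against 136 to 145 CPM, and their part in the result was not tested.

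In 7 comparisons 0 members passed in edgeR, and 0 in DESeq2. The share of all genes that passed was 6.72% for Tbx21, 1.62% for Stat3, 0.632% for Fosl2, 0.479% for Irf1, 0.381% for Ahr, 0.0452% for Irf8 and 0.0207% for Nfil3. At an unadjusted p under 0.05 there were 14 of 36 members for Ahr (6.10% of all genes), and of 37 members 7 for Irf1 (7.75%), 4 for Tbx21 (26.3%), 4 for Fosl2 (6.77%), 2 for Stat3 (13.7%), 1 for Irf8 (5.04%) and 0 for Nfil3 (3.66%). In Ahr 32 of 36 tested members were below 0, with a median log2 fold change of -0.19 against 0.01 over all genes. In Tbx21 28 of 37 were above 0 (median 0.18, against 0.01 over all genes), 11 of 12 chaperone genes among them, and in Irf1 27 of 37 (median 0.15, against 0.01) on the TMM scale, which raises the Irf1 knockout by 0.08 against library totals. In Ahr, Cars (-0.50 ± 0.14, adjusted p = 0.144) and Mars (-0.39 ± 0.12, adjusted p = 0.18), the methionyl enzyme, had the smallest p, and without Ahr knockout replicate 2, 2 members passed, with 0.457% of all genes. The amino acid carriers Slc7a5 and Slc3a2, which form the leucine exchanger, fell in that comparison. In Fosl2, with 1 knockout library, 32 of 37 were below 0, with a median of -0.27 against -0.02 over all genes and the smallest p for Trib3 (-1.02 ± 0.31, adjusted p = 0.111) and Psph (-0.80 ± 0.26, adjusted p = 0.15).

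In the Tbx21 experiment Hspa5 was at 679 and 1059.7 CPM in the knockout libraries and 455 and 584 CPM in the controls, with replicate 2 the higher in both groups (0.64 ± 0.24, adjusted p = 0.135). Creld2 was at 21.3 and 40.2 CPM against 16.2 and 21.0 CPM (0.62 ± 0.32, adjusted p = 0.257). Wars came closest to the threshold, at 118 and 115 CPM against 60.4 and 76.9 CPM (0.65 ± 0.16, adjusted p = 0.0524), and Edem1 had the next smallest p (-0.42 ± 0.15, adjusted p = 0.119). Without knockout replicate 1 the count was 5 of 37, where 15.2% of all genes passed, and without replicate 2 it was 3, where 12.6% did. TMM and library totals differed by 0.11 on the log2 scale here, and 1 member passed on totals, with 6.75% of all genes.

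In the linked experiment, Irf1 knockout libraries held Trib3 at 49.8, 55.9 and 58.0 CPM against 30.8 and 30.8 CPM in the controls of batches A and C (0.94 ± 0.26, adjusted p = 0.212), with Ddit3 next (1.34 ± 0.39, adjusted p = 0.272). Over the 16 comparisons Wars had its lowest log2 fold change there (-0.76 ± 0.25, adjusted p = 0.403). In Stat3, with 1 knockout library, Phgdh (0.69 ± 0.28, adjusted p = 0.265) and Shmt2 (0.54 ± 0.24, adjusted p = 0.344) had the smallest p. In Irf8 these were Ddit3 (0.93 ± 0.39, adjusted p = 0.949) and Atf4 (0.37 ± 0.21, adjusted p = 0.949), and the TMM factors there differed by -0.45 on the log2 scale (knockout minus control), which raises the knockout values, with 1 library at 43.7% Rn45s. In Nfil3, whose knockout libraries differed in Nfil3 level as given above, they were Hspa5 (0.20 ± 0.11, adjusted p = 0.99952) and Atf4 (0.24 ± 0.14, adjusted p = 0.99952). Spread was wide in these comparisons: the SE of Hspa5 was 0.21 for Irf1, 0.22 for Irf8 and 0.29 for Stat3, against 0.05 for the Prdm1 knockout, so values that did not pass are not shown to be alike.

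The 9 members that passed nowhere ranged from high to low expression. Phgdh, Gars (the glycyl enzyme) and Sars (the seryl enzyme) were among the 12 highest of the 37 by control TPM. Over the comparisons in which each was tested, log2 fold changes ran from -0.28 (Ahr) to 0.79 (Batf) for Phgdh, from -0.36 (Fosl2) to 0.29 (Batf) for Gars and from -0.42 (Fosl2) to 0.54 (Irf1) for Sars. Tars, the threonyl enzyme, ran from -0.14 (Irf1) to 0.29 (Irf4) and Aars, the alanyl enzyme, from -0.32 (Stat3) to 0.15 (Ets1). Chac1 had a wide range, from -0.89 (Ahr) to 1.39 (Batf), at a control median of 8.12 CPM.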

How the data were processed

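Per the submitters' processing notes, reads were handled with TopHat and RSEM on the mouse build mm9. Their versions, the annotation and whether counting used strand: not given in the sources used here. For each library the authors deposited expected counts (RSEM estimates per gene, of which 22.4% of the values above 0 are not whole within 0.005) and TPM, transcripts scaled to 1000000 per library, which keep no depth. Levels are CPM of the expected counts or the authors' deposited TPM. Library totals ran from 743427 to 15221863, so that the 3 counts used as a floor correspond to between 0.197 and 4.04 CPM. Reads carry no molecular identifiers.

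Expected counts were rounded and tested on all genes of an experiment with edgeR 4.0.16 (R 4.3.3): low-count filter, TMM factors, quasi-likelihood test, Benjamini-Hochberg adjustment and a threshold of 0.05. All groups of an experiment shared 1 estimate of spread. The linked Batf, Irf1, Irf8 and Stat3 libraries had a batch term. Batches A and B were inferred from control titles that name the knockout libraries they serve. The remaining batch, C, is set by exclusion. In Irf4 and Irf9, libraries that differed little beyond counting noise (chi-square per degree of freedom under 1.3) were kept separate, and the values with such pairs summed are given beside the results. Alternatives were DESeq2 1.42.0, its size factors, no filter, a replicate block, leaving out each library, and library totals with no scaling factor.

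The members, the further pathway and marker lists and the tests were chosen with earlier results of these data known. All members were eligible to be named: those past the threshold with their values, and where none passed, those with the smallest p. Further pathway genes were named only past the threshold. The fits were tested on simulated data. Promoters are from RefSeq GRCm38.p6 and their coordinates were not joined to the mm9 counts. One promoter stretch is not reported here. The Cebpb libraries, replicate 1 of the Fosl2 knockout and, apart from 1 alternative, replicate 3 of the double knockout were left out.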

Additional observations from a re-analysis of the deposited data

Results flagged for a closer look

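In groups of 4 to 10 libraries, each member's CPM was checked for a library far from the others with Dixon's ratio at its 95% critical value; 36 sets of values were checked, and chance gives about 1 in 20. In the 4 Irf9 knockout libraries, 3 members stood out. Sesn2 was at 91.1 CPM in replicate 4, above 67.5, 67.1 and 69.3 CPM in the others. Yars was at 73.5 CPM in the same library, below 88.8, 89.8 and 89.7 CPM. Mars was at 117 CPM in replicate 2, below 148.6, 147.7 and 143.6 CPM. None of the 3 genes passed the test in the Irf9 comparison.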

How the results depend on the processing

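Over 55 calls of a member, 734 alternative values were computed: 573 kept direction and call, 158 kept the direction but missed the threshold and 3 reversed. The 3 are Atf4 (-0.35), Cars (-0.35) and Wars (-0.32) in the double knockout with its replicate 3 included, where 0 members passed in the Prdm1, Maf and double comparisons. DESeq2's size factors in edgeR lost 0 of the 55 calls. With DESeq2 the count of members called was 3 for Batf, 0 for Atf3 and 1 for Ets1. On library totals with no scaling factor, chosen after seeing the data, it was 19 for Prdm1, 5 for Ets1, 1 for Tbx21 and 0 for Batf and Hif1a. With no filter on low counts it was 5 for Ets1, 2 for Batf and 1 each for Irf1, Tbx21 and Ahr. Without the batch term it was 0 for Batf and 1 for Irf1, and in its own batches alone 2 for Batf. With similar library pairs summed it was 0 for Irf9. The cause of these moves was not tested. Leaving out 1 library at a time gave from 13 to 22 members for Irf4, 5 to 13 for Prdm1, 1 to 4 for Maf, 3 to 10 for the double knockout, 0 to 5 for the departure of the double knockout from the sum, 0 to 3 for Batf, Irf9 and Hif1a, 1 to 3 for Atf3, 1 to 7 for Ets1, 0 to 5 for Tbx21, 0 to 2 for Ahr and 0 for Irf1, Irf8, Stat3 and Nfil3. This could not be done for Fosl2, nor for Stat3 without its 1 knockout library.

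The sources used here do not say what a replicate number marks, and the numbers were not taken to pair the libraries: deviations of knockout and control correlated from -0.07 to 0.08 in the Prdm1 and Maf experiment, at 0.30 in Hif1a, 0.18 in Tbx21 and from -0.35 to -0.26 in Nfil3. With the replicate number as a block, the count was 22 for Irf4, 11 for Prdm1, 2 for Maf, 9 for the double knockout, 0 for the departure from the sum, 3 for Atf3, 1 for Ets1, 2 for Irf9, 4 for Hif1a, 3 for Tbx21 and 0 for Ahr and Nfil3. Over all genes the block moved the count from 549 to 1417 in Hif1a and from 738 to 1783 in Tbx21; each has 2 pairs. No paired analysis was possible for Fosl2 and for Batf, Irf1, Irf8 and Stat3, because fewer than 2 numbers are shared with their controls. Depth limits the low members: in the shallowest library 3 counts equal 4.04 CPM, which is near the level of Dnajb9 and Chac1.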
